A study of Drosophila melanogaster with 8 samples.

Results

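Chromatin regions in wing imaginal discs that an anti-GFP antibody recovered from discs without a GFP tag, and not from discs with one, are described here. Peaks of all 8 deposited lists on the chromosome arms were merged where they shared at least 1 bp, and a region was kept when it held a peak in at least 2 of the 4 wild type lists and in none of the 4 Zelda-GFP lists. This rule kept 410 of 9086 merged regions, which is 4.51%. They made up 20.6% of the 1990 regions called in at least 2 wild type lists. With the genotypes exchanged, the same rule kept 1325 regions (14.6%), here called the Zelda-GFP-only regions. That count rests on both Zelda-GFP damaged libraries: without replicate 1 of them it was 310, beside 460 under the rule above, and without replicate 2 it was 302, beside 467. Because peak calls chose the 410 regions, these shares are descriptions and no test sets one genotype against the other.

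The wing imaginal disc is the larval epithelium that forms the adult wing and part of the thorax, and it can regrow after injury. Wild type larvae were w1118, the white-eyed laboratory strain, and carried no GFP. Tagged larvae carried GFP fused to Zelda at the gene's own locus. Discs came from larvae with normal development, called undamaged, or were collected 2 days after damage, with 2 libraries for each of the 4 groups. The labels give neither the way of damaging nor the larval age, and do not say whether the strains share a background beyond the tag, so tag and strain cannot be told apart. They do not say that the replicates came from separate collections of larvae, so the p-values below measure only the spread between libraries. Peaks of an antibody against GFP do not measure expression, so the labelled tissue could not be checked against marker genes.

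Zelda is a zinc finger transcription factor that opens chromatin in the early fly embryo and is also present in imaginal discs. In CUT&RUN a nuclease is brought to the antibody's target, and the DNA fragments that it cuts free are sequenced. Without the tag the antibody has no GFP to bind, and the fragments recovered are the background that such a control is made to measure. Open chromatin and repeated sequence are well known to appear in such backgrounds.

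The wild type lists held between 1744 and 3706 peaks on the arms. The lists give no read totals, and background coverage recovered from the deposited statistics served as the measure of depth. It lay between 32.6 and 52.3 fragments per base over the wild type libraries and between 35.3 and 51.8 over the Zelda-GFP ones. Wild type damaged replicate 2 stood apart from the other wild type libraries, since 45.6% of its peaks lay within 500 bp of an end of a protein-coding gene, against 6.59%, 16.3% and 10.7% in undamaged replicate 1, undamaged replicate 2 and damaged replicate 1. In the Zelda-GFP libraries this share was 15.2% and 6.36% when undamaged and 32.0% and 34.4% when damaged. Without wild type damaged replicate 2 the rule kept 213 regions, and without wild type undamaged replicate 2 it kept 238. A region missing from a list lay below the authors' calling threshold there, and the lists hold no value for it.

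Most of the 410 regions were called in the fewest lists the rule allowed. Of them, 294 were called in 2 wild type lists, 70 in 3 and 46 in all 4. The most frequent pair was replicate 2 of both conditions with 97 regions. The pair of damaged libraries followed with 83, and the pair of undamaged libraries with 52. Every other combination of 2 or 3 libraries held between 14 and 28 regions. Whatever the Zelda-GFP calls, the replicate 2 pattern among wild type lists covered 183 of all 9086 merged regions. The pattern of the damaged pair covered 259 and that of the undamaged pair 110. The replicate 2 lists were also the longest wild type lists, with 3355 peaks on the arms when undamaged and 3706 when damaged.

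**Figure D1:**
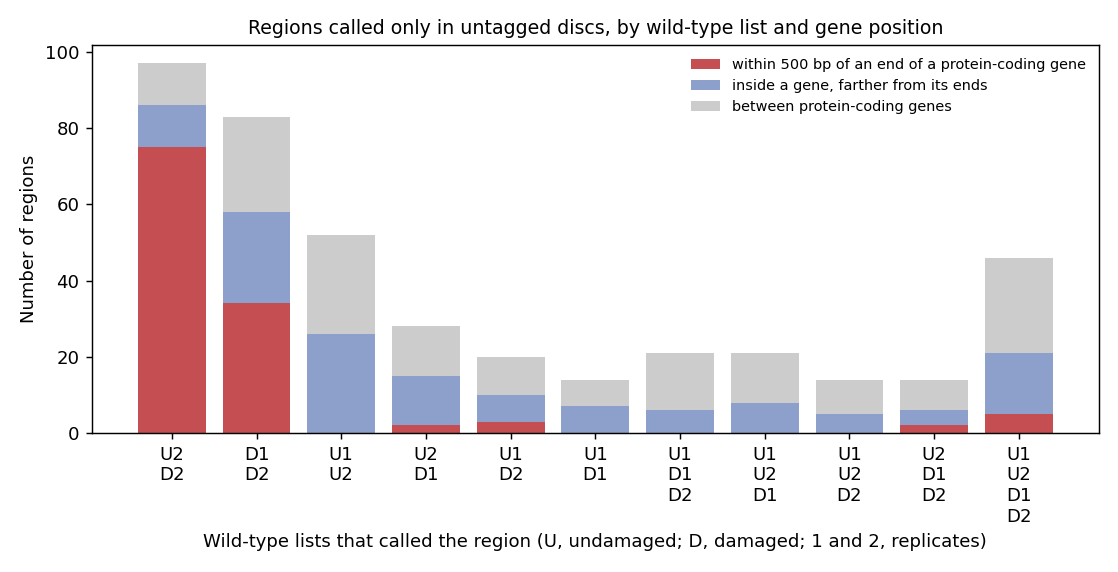
Number of regions (y axis) for each combination of wild type lists that called them (x axis), where U1 and U2 are the undamaged and D1 and D2 the damaged replicates, with colours for the position relative to protein-coding genes. The pair U2 and D2 holds 97 regions, of which 75 lie near a gene end, the pair D1 and D2 holds 83, and all 4 lists hold 46.

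The regions were of modest enrichment, and their median width was above that of all merged regions. Widths ran from 242 to 4869 bp with a median of 573 bp, beside 471 bp over all merged regions. The highest fold enrichment of a region, a linear ratio of pileup to local expected coverage from the authors' caller, had a median of 1.98, beside 1.95 over all merged regions. In 27 of the 410 regions it reached 3, beside 987 of all 9086 merged regions. In 62 of the 410 the lowest fold was at least 2, beside 2175 of the 9086. Both shares were lower among the 410 than over all merged regions, although the medians were close. The lowest fold is taken over the lists that called a region, which number at least 2 for each of the 410. Of the 9086, 3026 were called in 1 wild type list alone and 1795 in 1 Zelda-GFP list alone. The lower share with a lowest fold of at least 2 is therefore partly set by the rule. These folds took part in calling the peaks, and are given to describe the regions.

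Regions called in more lists were wider and stood higher within their lists. Those in 4 lists had a median width of 910 bp and a median within-list percentile of fold of 67.8, and those in 2 lists 517.5 bp and 39.8. Just outside the rule, the 3026 regions called in 1 wild type list alone had a median width of 331 bp and a median percentile of 34.9. The 173 regions called in 2 wild type lists and 1 Zelda-GFP list had medians of 682 bp and 38.6. A region called in more lists has more peaks from which to take its extent.

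Most of the regions lay more than 1 kb from any peak of the tagged discs. The gap to the nearest Zelda-GFP peak ran from 26 to 267549 bp, with a median of 4334 bp. It was under 500 bp for 45 regions (10.98%) and under 1000 bp for 88 (21.5%). Among the 3026 regions called in 1 wild type list alone, the median gap was 5477 bp, with 13.3% under 500 bp and 22.4% under 1000 bp.

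In the wild type libraries the regions had folds close to those of other peaks and lower significance. They took 11.01% and 8.46% of the peaks of the wild type undamaged libraries and 10.04% and 8.15% of those of the damaged ones. Their median fold was 2.08 in undamaged replicate 1, beside 2.06 for that list's other peaks. In undamaged replicate 2 it was 1.81 beside 1.84, in damaged replicate 1 1.75 beside 1.83, and in damaged replicate 2 1.82 beside 1.85. The authors' median −log10 q-value was lower than that of the list's other peaks in all 4 lists, at 6.59 beside 7.29 and 4.86 beside 5.10 in undamaged replicates 1 and 2, and at 5.13 beside 6.75 and 5.17 beside 5.79 in damaged replicates 1 and 2. The share of peaks whose local expected coverage was at the library background was higher in all 4, from 56.3% beside 33.8% in undamaged replicate 1 to 58.6% beside 56.2% in damaged replicate 2. Fold and q-value took part in calling the peaks. The rule leaves every peak of a region with a Zelda-GFP call among the other peaks, so these comparisons are descriptions.

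Set side by side, the damaged and undamaged wild type libraries differed in their recovery of the regions by less than replicates did. The share of a library's peaks that lay in them was 9.09% ± 1.33 (SD, n = 2) in damaged discs and 9.74% ± 1.80 (SD, n = 2) in undamaged discs, a difference of -0.645 percentage points. The number of regions called was 261 ± 48.1 (SD, n = 2) in damaged and 230 ± 59.4 (SD, n = 2) in undamaged discs. For the 46 regions in all 4 lists, the mean within-list percentile of fold was 66.0 ± 2.65 (SD, n = 2) and 66.1 ± 4.96 (SD, n = 2). Exact two-sided permutation tests gave p of 0.667, 0.667 and 1, each 1 after Benjamini-Hochberg adjustment over the 3, but nothing is read from them. The smallest p for 2 libraries against 2 is 0.3333, the wild type calls they use also chose the regions, and the Zelda-GFP lists that removed regions differed in length between conditions, with 2908 and 1698 peaks undamaged and 3624 and 3908 damaged.

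The regions called in both libraries of 1 condition and in neither of the other were set beside the background of all merged regions. Both damaged lists and no undamaged one held 83 of the 410 regions, and the same pattern among wild type lists covered 2.85% of all 9086 regions and 13% of the 1990 in at least 2 wild type lists. Both undamaged lists and no damaged one held 52, where the pattern covered 1.21% of all regions and 5.53% of the 1990. The 410 regions are defined by having at least 2 wild type calls and no Zelda-GFP call, so their own shares cannot be read against either background as a damage effect.

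By position, the regions lay between genes more often than merged regions at large, and less often than other regions called in at least 2 wild type lists. Of the 410 regions, 162 (39.5%, 95% Wilson interval 34.9 to 44.3) lay between protein-coding genes, 127 (31.0%, 26.7 to 35.6) inside one and 121 (29.5%, 25.3 to 34.1) within 500 bp of a gene end. Over all merged regions the shares were 30.0%, 32.7% and 37.3%. Among the Zelda-GFP-only regions 40.5% lay near a gene end and 23.9% between genes. Of the 1580 regions in at least 2 wild type lists that also had a Zelda-GFP call, 55.3% (52.8 to 57.7) lay between genes and 13.5% near a gene end. For the 586 regions called in all 8 lists these shares were 59.0% and 9.90%, and for the 173 called in 2 wild type lists and 1 Zelda-GFP list 48.6% and 25.4%. Intervals cover counting error only, and regions of 1 library are not replicates.

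The gene-end regions came almost entirely through one library. Of the 121, 119 were called in wild type damaged replicate 2. The pair of undamaged and damaged replicate 2 supplied most of them, with 75 of its 97 regions (77.3%, Wilson interval 68.0 to 84.5) near a gene end. The pair of damaged libraries had 34 of 83 (41.0%, 31.0 to 51.7). The pair of undamaged libraries had 0 of 52 (0%, 0 to 6.88), and the regions in 3 lists had 2 of 70. Without damaged replicate 2, the share of the regions the rule kept that lay near a gene end was 3.76%.

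**Figure D2:**
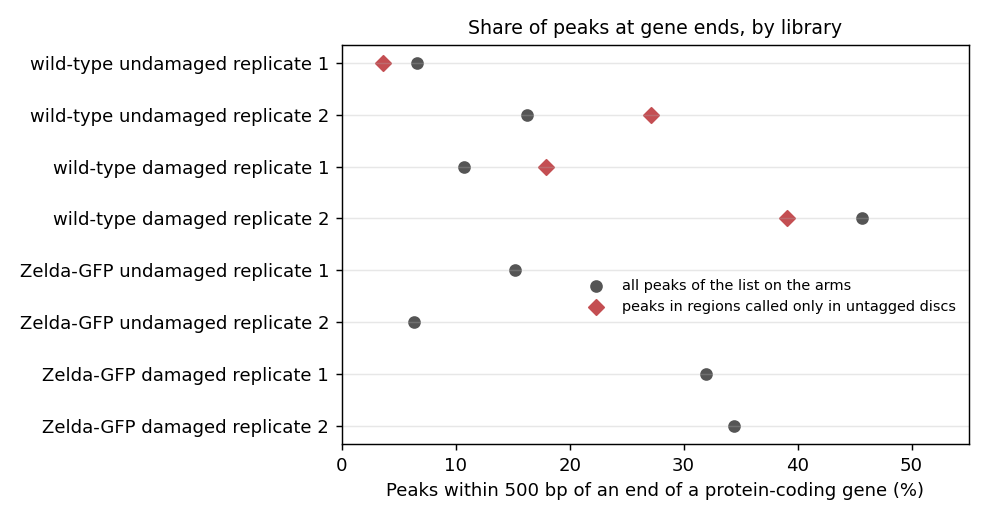
Share of peaks within 500 bp of an end of a protein-coding gene (x axis, percent) in each of the 8 libraries (y axis), with circles for all peaks on the arms and diamonds for the peaks inside the 410 regions, which the Zelda-GFP lists do not hold. Wild type damaged replicate 2 is highest on both measures, at 45.6% and 39.1%.

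The same lean was present in regions that the tagged discs shared. Among regions called in replicate 2 of both wild type conditions, in no other wild type list and in at least 1 Zelda-GFP list, 45 of 86 (52.3%) lay near a gene end. Among those of the damaged pair with a Zelda-GFP call, 53 of 176 (30.1%) did. The replicate 2 pair therefore carried a high gene-end share with and without a Zelda-GFP call. This split by list pattern was made after values were seen, and what sets wild type damaged replicate 2 apart was not tested.

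The 75 gene-end regions of the replicate 2 pair had median folds below those of their lists' other peaks. Their fold ran from 1.34 to 2.75 in undamaged replicate 2 and from 1.53 to 2.55 in damaged replicate 2, with medians of 1.69 and 1.81, beside 1.84 and 1.85 over the lists' other peaks. At 48 of them 2 or more genes lay within reach of the region. The one highest within its lists overlapped CG7650 on 3L, with CG13449 also within 500 bp, and had folds of 2.13 and 2.19. The next, on 2R, overlapped cid, which encodes the histone H3 variant of centromeres, with bbc and cbc also within 500 bp, and had folds of 1.96 and 2.36. These examples were chosen after their values were seen.

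The regions were spread over all 6 arms, with the X holding the most called in all 4 lists. Of the regions in at least 2 wild type lists, the share without a Zelda-GFP call was 16.1% on 2L, 17.5% on 2R, 22.1% on 3L, 24.2% on 3R and 22.6% on the X, and chromosome 4 had 2 regions. The X held 12.0% of all merged regions and 371 of the 1990 called in at least 2 wild type lists. It held 84 of the 410 (20.5%) and 22 of the 46 called in all 4 wild type lists. Among 272 windows of 500 kb with a merged region, 175 held one or more of the 410, the median window held 1, and 15 windows with 5 or more held 141.

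The 2 fullest windows were neighbours on the proximal X and held 29 and 17 regions. Together, from 21500001 to 22500000 in the dm6 build, they held 46 of the 410 regions (11.2%) and 16 of the 46 called in all 4 wild type lists. Of the 118 regions there called in at least 2 wild type lists, 39.0% (Wilson interval 30.66 to 47.997) had no Zelda-GFP call. Over the rest of the X that share was 15.0% (11.1 to 19.9), and over everything outside the window 19.4% (17.7 to 21.3). The window was picked because it was the fullest, so these shares are descriptions.

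Within that window 0 of the 46 regions lay in a protein-coding gene. It contains flam, a long noncoding RNA gene at X 21631891 to 21790731 in the RefSeq Release 6 table, known in Drosophila as a source of piRNAs that silence retrotransposons in ovarian somatic cells. Of the 53 merged regions in flam 4 were among the 410, and the other 42 of the window lay beyond its proximal end. Past flam the table holds 0 genes before CG40813, which starts at 22143058.

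The regions were densest in a 150-kb stretch at X 22000001 to 22150000. Of its 65 merged regions, 27 were among the 410, 11 of these in all 4 wild type lists, and 0 were Zelda-GFP-only. The wild type libraries called 47 and 46 regions there when undamaged and 33 and 37 when damaged. The Zelda-GFP libraries called 4 and 15 when undamaged and 14 and 7 when damaged. The stretch was chosen for its many regions of the 410, which have wild type calls and no Zelda-GFP call by rule, so part of this gap follows from the choice. Leaving those regions out, the counts were 21 and 25 in undamaged and 17 and 16 in damaged wild type libraries, and 4 and 15 in undamaged and 14 and 7 in damaged Zelda-GFP ones. Leaving them out does not undo the choice of the stretch, so these counts are descriptions too. In the 50 kb from 22250001 to 22300000, all 7 regions were called in all 8 lists.

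**Figure D3:**
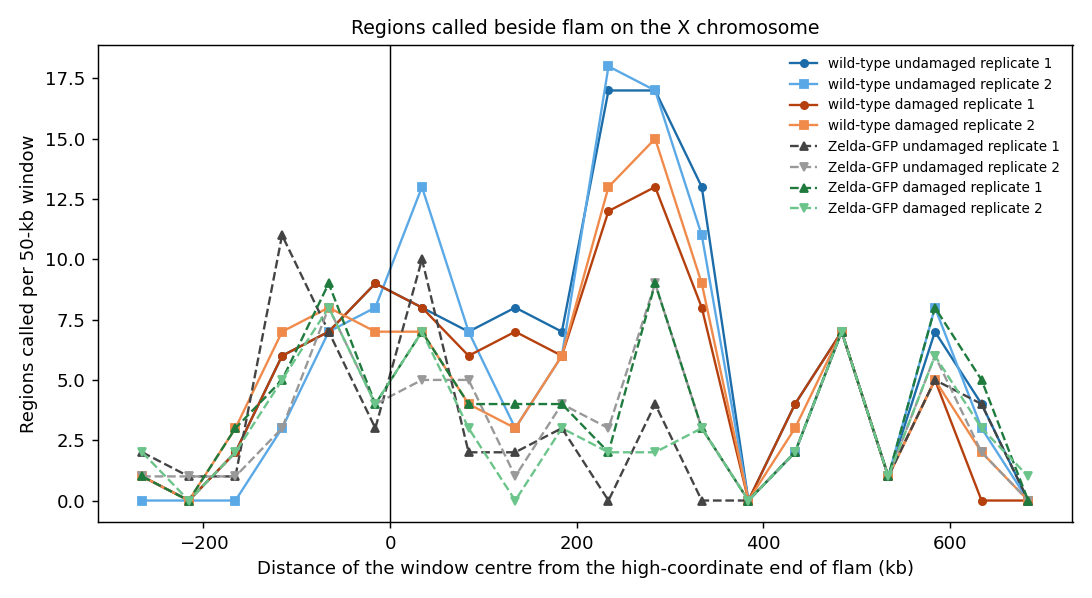
Regions called per 50-kb window (y axis) against the distance of the window centre from the high-coordinate end of flam (x axis, kb, vertical line at the end of flam), with solid lines for wild type and dashed lines for Zelda-GFP libraries; lines of equal value hide each other. Over the 3 windows of the 150-kb stretch wild type libraries called 33 to 47 regions in all and Zelda-GFP libraries 4 to 15, and every library called the same 7 regions of a window beyond it.

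The length of the peaks in the stretch did not separate the genotypes. Wild type peaks covered 30056, 21331, 25740 and 26012 bp in undamaged replicates 1 and 2 and damaged replicates 1 and 2, with mean lengths of 626, 444, 757 and 685 bp. Zelda-GFP peaks covered 1224 and 6308 bp when undamaged and 6550 and 2743 bp when damaged, with mean lengths of 306, 421, 468 and 392 bp. Mean lengths overlapped between the genotypes, since undamaged replicate 2 of wild type, at 444 bp, lay below the 468 bp of Zelda-GFP damaged replicate 1. The other wild type means lay above every Zelda-GFP mean.

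The caller's local expected coverage was raised in the stretch in wild type libraries. Divided by each library's background it had a median of 2.72, 1.495, 1.60 and 1.55 over the wild type peaks there, and of 1.00, 1.06, 1 and 1 over the Zelda-GFP peaks. Peaks of regions outside the 410 gave 2.89, 1.57, 1.68 and 1.57 in the wild type libraries. Over the 22 regions of the 1-Mb window called in all 8 lists, the same ratio was 2.06, 1.26, 1.46 and 1.49 in the wild type libraries and 1.08, 1.49, 1.39 and 1.202 in the Zelda-GFP ones, and the genotypes overlapped. In the Zelda-GFP libraries the medians rest on the 4 to 15 regions called there. In the stretch, which was chosen by its calls, both the calls and the expected coverage were higher in wild type than in Zelda-GFP libraries. Within wild type, undamaged replicate 1 had the most calls, 47, and the highest ratio, 2.72. Undamaged replicate 2 called 46 regions at a ratio of 1.495, damaged replicate 1 called 33 at 1.60 and damaged replicate 2 called 37 at 1.55. The part of expected coverage in the calls was not tested.

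**Figure D4:**
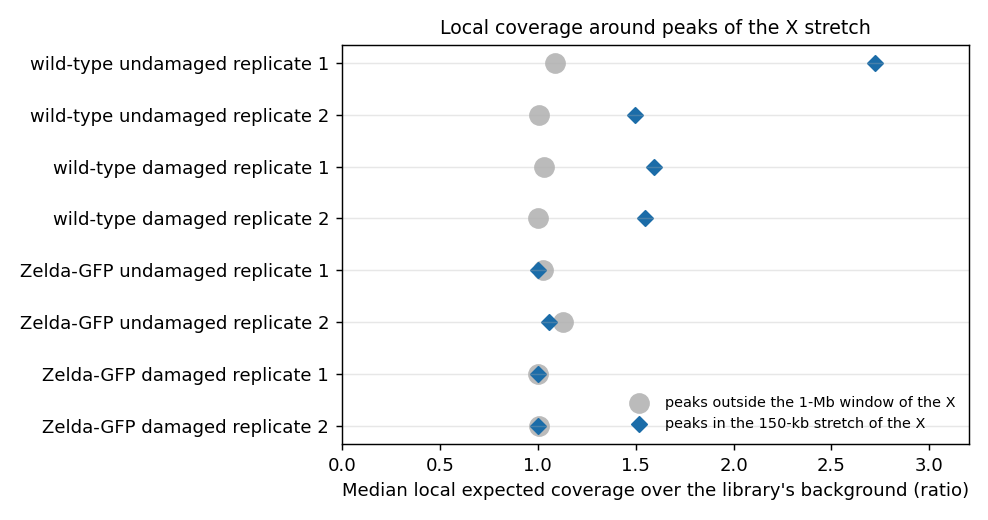
Median local expected coverage divided by library background (x axis, ratio) in each of the 8 libraries (y axis). Diamonds are peaks in the 150-kb stretch of the X, where wild type libraries lie between 1.495 and 2.72 and Zelda-GFP libraries between 1 and 1.06, and circles are peaks outside the 1-Mb window, which lie between 1.00 and 1.13 in all 8.

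Regions common to all libraries gave a less clear picture, which depended on the window. Over the 22 regions of the 1-Mb window called in all 8 lists, the median pileup over background was 6.31, 4.21, 3.88 and 3.83 in the wild type libraries and 4.26, 5.56, 5.26 and 5.22 in the Zelda-GFP ones, and the genotypes overlapped. Over the 6 such regions between 21750001 and 22150000 it was 5.91, 2.88, 3.38 and 3.22 against 2.09, 2.75, 2.31 and 2.02, without overlap. These bounds were among 3 windows looked at, each chosen after values were seen.

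The 10 strongest of the 46 regions called in all 4 wild type lists, ranked by mean within-list percentile of fold, follow with their folds in undamaged replicates 1 and 2 and damaged replicates 1 and 2. The first lay in Drip, which encodes an aquaporin water channel, at 2R 11416038 to 11417449, with folds of 4.61, 6.21, 5.54 and 4.91. Its nearest Zelda-GFP peak was 34548 bp away. Both merged regions in Drip were among the 410, the other at 11417636 to 11418250 with folds of 2.202 in undamaged replicate 2 and 1.97 in damaged replicate 1.

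The second lay between genes at 2R 3232905 to 3234789, with folds of 3.15, 7.08, 5.20 and 3.72, and its nearest gene, dpr21 of a family of immunoglobulin-domain surface proteins, was 41893 bp away. The third overlapped CG2003 and heph, a polypyrimidine tract-binding RNA-binding protein, at 3R 31980336 to 31982736, with folds of 3.12, 3.57, 2.63 and 3.08. The fourth lay at 3R 18032947 to 18034463, 7568 bp from CG7794, with folds of 2.65, 3.58, 2.996 and 2.72. The mean within-list percentiles of fold of the first 4 regions were 98.4, 96.3, 92.8 and 91.5.

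Phf7, a PHD finger protein of the male germ line in Drosophila, held the fifth at X 20163805 to 20164988, with folds of 4.43, 2.68, 2.63 and 2.29. The next 3 all lay in the 150-kb stretch of the X. They were at 22118098 to 22119134 with folds of 2.88, 2.48, 2.52 and 2.78, at 22004900 to 22005697 with 2.37, 3.16, 2.91 and 2.79, and at 22010586 to 22011464 with 3.14, 2.51, 2.33 and 2.43.

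The ninth lay at 2L 5571082 to 5571898, 7579 bp from GluRIIB, a glutamate receptor subunit of the larval neuromuscular junction, with folds of 2.59, 2.68, 2.78 and 2.38. The tenth lay in flam at X 21775898 to 21776922, with folds of 2.92, 2.87, 2.13 and 2.99. Of the 10 regions 5 lay on the X, 4 of them in the 1-Mb window. Folds of different lists were not shown to share a scale, so no order of the libraries is read from them.

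**Figure D5:**
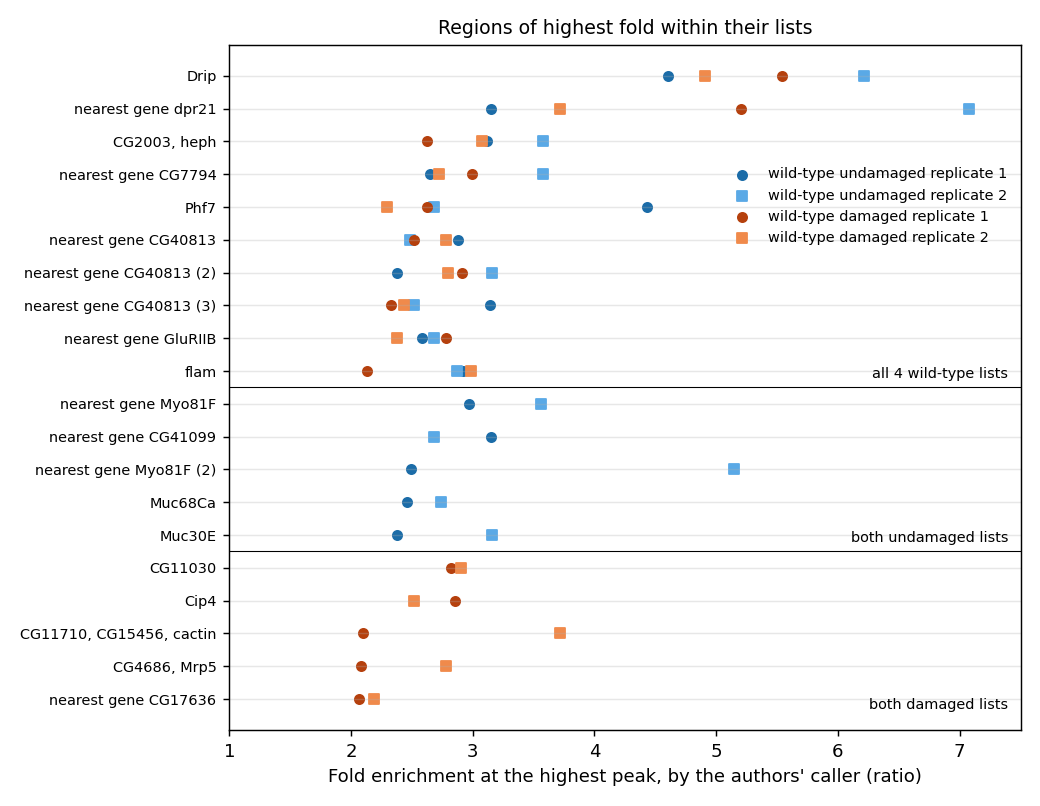
Fold enrichment by the authors' caller (x axis, ratio) of the named regions in each wild type library, grouped as called in all 4 wild type lists, in both undamaged lists alone and in both damaged lists alone. The regions at Drip and nearest to dpr21 have folds of up to 6.21 and 7.08.

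The 5 strongest regions called in both undamaged lists and no damaged one included 2 at the proximal end of 3R. One, at 3R 79567 to 84435, was the widest of the 410 with 4869 bp and had folds of 2.97 and 3.56 in undamaged replicates 1 and 2. The other, at 35012 to 37113, had folds of 2.50 and 5.15. They lay 482640 and 529962 bp from Myo81F, their nearest protein-coding gene. Another lay between genes at 3R 3912011 to 3912488, 43609 bp from CG41099, with folds of 3.15 and 2.68.

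The other 2 lay in mucin genes, whose products are heavily glycosylated secreted or surface proteins. The region in Muc68Ca, at 3L 11611531 to 11611955, had folds of 2.46 and 2.74, and that in Muc30E, at 2L 9898512 to 9899820, had 2.38 and 3.16. Muc14A held 2 further regions, so 3 of the 13 genes named Muc in the table held one or more, beside 217 of all 13962 protein-coding genes, and 9 held any merged region. Of the regions called in at least 2 wild type lists, Muc14A had 8, Muc30E 2 and Muc68Ca 2, with 2, 1 and 1 among the 410. Muc12Ea had 2, Muc26B 1 and Muc68E 1, with 0 among the 410. Over all arms, 20.6% of such regions were among the 410. The mucin genes were counted together after these values were seen.

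Of the 5 strongest regions called in both damaged lists and no undamaged one, the first lay in CG11030 at 2L 5743096 to 5745185, with folds of 2.82 and 2.91 in damaged replicates 1 and 2. The second lay in Cip4, which encodes an F-BAR domain protein of membrane trafficking, at 3L 4362274 to 4362756, with folds of 2.86 and 2.51. A second Cip4 region was called in undamaged replicate 1 as well as both damaged libraries, with folds of 2.47, 2.61 and 2.73. In heph too, a region of the damaged pair lay in the same gene as one called in all 4 lists.

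The third overlapped CG11710, CG15456 and cactin, at X 20426225 to 20428366, with folds of 2.10 and 3.72. The fourth overlapped CG4686 and Mrp5, an ABC transporter gene, at 3R 19864543 to 19865628, with folds of 2.08 and 2.78. The fifth lay between genes at X 108040 to 109540, 14829 bp from CG17636, with folds of 2.07 and 2.19. The mean within-list percentiles of these 3 were 85.9, 83.8 and 77.4.

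The gene lists chosen for the tissue are given beside the share over all protein-coding genes. Of 14 wing patterning genes 1, en, had a region in its body or within 2 kb, and of 8 regeneration genes and of 7 muscle precursor, blood cell and tracheal genes 0 did. Over all protein-coding genes on the arms, 441 of 13922 (3.17%) had one. The region at en, a homeodomain factor of the posterior compartment, lay 579 bp from the gene at 2R 11528790 to 11529384. Its folds were 1.60 and 1.61 in the damaged replicates, and a Zelda-GFP peak lay 390 bp away. Among the same 14 genes, 9 had a Zelda-GFP-only region and 14 had any merged region, beside 1409 and 6947 of the 13922. The lists were chosen with earlier results of these data known, so nothing is read from these counts.

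Several long genes near the centromere of chromosome 3 held several of the regions each. In each gene the count is set beside its merged regions and beside those called in at least 2 wild type lists, of which 20.6% were among the 410 over all arms. Pzl, a relative of the Piezo mechanosensitive channels, held 12, of 81 merged regions and 34 in at least 2 wild type lists. Myo81F, a myosin gene, held 11, of 187 and 71, and Snap25, a SNARE protein of synaptic vesicle release, held 9, of 37 and 19. Parp1, the poly(ADP-ribose) polymerase, held 4, of 15 and 6, and l(3)80Fg 4, of 25 and 9. In Snap25 the wild type libraries called 16, 24, 15 and 10 regions and the Zelda-GFP libraries 20, 6, 9 and 3, so the genotypes overlapped. These genes were picked after their counts were seen.

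In all, 217 protein-coding genes, these included, held one or more of the regions and 18 held 2 or more. In ph-p, a Polycomb group gene, 2 of 4 merged regions were called in all 4 wild type lists, at X 2132174 to 2132535 with folds of 2.26, 1.64, 2.50 and 2.55, and at 2132769 to 2133465 with 2.38, 2.13, 2.31 and 2.57. Both other merged regions in ph-p were Zelda-GFP-only, each called in both damaged Zelda-GFP libraries, and the undamaged Zelda-GFP libraries called 0 regions in the gene. The gene was singled out after its values were seen. The widest regions after the one at 3R 79567 lay at 3R 67195 to 71859 and, in the LAMMER kinase gene Doa, at 3R 28895170 to 28898114, the second called in all 4 wild type lists with folds of 2.16, 2.00, 1.60 and 1.93.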

How the data were processed

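CUT&RUN peak lists of 8 libraries were used, 1 list per library, so replicates were not pooled. The submitters' processing notes name bcl2fastq 2.20, Bowtie2, SAMtools, Picard, deepTools, MACS2 and dm6, without role or order. Whether a control library entered peak calling is not given in the sources used here. The deposited lists give for each peak a fold (a linear ratio), a −log10 p-value, a −log10 q-value, a score used only to check the layout, and a summit offset. Deposited folds were ranked only within a list. The cutoffs of 2 and 3 and a region's highest fold take folds from all lists as they stand, and describe regions only. From fold and p-value the pileup and expected coverage were recovered, assuming (pileup + 1)/(expected + 1) and a Poisson tail, a form chosen among 4 by its fit. Pileups came out whole for 100% of peaks (relative tolerance 5e-05), and a library's lowest expected coverage was its background.

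Regions were merged with Python 3.11.15, pandas 2.3.3 and numpy 2.4.6 on the 6 arms, and tested on simulated lists. Genes came from the RefSeq Release 6 table, the assembly of dm6, which has neither strand nor exons. Tests were exact two-sided permutations over libraries (scipy 1.17.1). Wilson intervals are at 95%. The members and gene lists were chosen with earlier results of these data known. Named regions were the 10 highest in all 4 wild type lists, the 5 highest in each single-condition pair, those at listed genes and the 3 widest. No region passed the last criterion, a pileup over 10 times background. Base composition and motifs were not run, since no genome was used.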

Additional observations from a re-analysis of the deposited data

How the results depend on the processing

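The 410 regions became 157 when peaks needed a fold of at least 2 and 116 when 3 lists were required, and ranged from 213 (without wild type damaged replicate 2) to 583 (without Zelda-GFP undamaged replicate 1) when 1 library was left out. The Zelda-GFP-only regions became 830 with lists of equal length and 189 with 3 lists, and ranged from 302 to 1541, with 310 and 302 without Zelda-GFP damaged replicates 1 and 2. The share near a gene end was 37.3% within 2 kb and 23.9% by summit, and ranged from 3.76% to 36.2%, with 18.1% without wild type undamaged replicate 2. The X window held 23 regions at a fold of at least 2, and 35 to 52 without 1 library. The damage difference in peak share ranged from -3.06 to 1.68 percentage points, turning positive without wild type undamaged replicate 1, and that in fold percentile from -2.16 to 1.98. The latter turned positive without wild type undamaged replicate 2 (1.98), Zelda-GFP undamaged replicate 1 (0.0247) or 2 (1.22), or Zelda-GFP damaged replicate 1 (1.47). The causes were not tested. The regions in 4 lists numbered 25 by summits, 26 at a fold of at least 2 and 72 without Zelda-GFP undamaged replicate 1. Of the 23 named regions, 18 still overlapped a kept region by summits, 11 with 3 lists, 22 at a fold of at least 2 or with lists of equal length (the one lost lay at en), and 17 without any single wild type library.

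With the replicate number as a block the differences were -0.645 and -0.0534, with exact sign-flip p of 0.5 and 1 (smallest possible 0.5). The correlation of same-numbered deviations was computed over 4 sets of regions. It was -0.124 over the 5966 regions with a wild type call, the set tried first, and -0.0667 over all 9086, -0.00998 over those with a Zelda-GFP call and 0.00531 over those with at least 2, so the answer on crossed numbers depended on the set. A crossed block, added after these values were seen, gave exact p of 1 for both differences. The numbers were not taken to pair the libraries. The X window, the alternatives for it and for regions in 4 lists, and leaving out libraries for gene position were chosen after seeing the data.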

Other observations

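Off the 6 arms, on the Y chromosome and unplaced sequences, 63 of 1793 merged regions met the same rule (3.51%) and 34 met it with the genotypes exchanged. Of the 63, 14 were called in all 4 wild type lists. On the Y alone 10 of 412 regions met the rule and 19 met the exchanged one.

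The region farthest from any Zelda-GFP peak lay in hydra on the X, at 20673182 to 20673832, with folds of 3.002, 2.14 and 2.10 in wild type undamaged replicate 1 and damaged replicates 1 and 2. The long noncoding RNA gene Hsromega, known for its induction by heat, held 2 regions called in undamaged replicate 2 and damaged replicate 1. It held 8 merged regions, 6 of them in at least 2 wild type lists. The Zelda-GFP libraries called 2 and 2 regions there when undamaged and 3 and 5 when damaged. NetA, which encodes the axon guidance protein netrin A, held 1 region called in all 4 wild type lists, with folds of 4.70, 2.80, 1.99 and 2.27. These genes were singled out after their values were seen.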
